A study of Homo sapiens with 6 samples.

Results

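Tetraspanins are small membrane proteins that cross the membrane repeatedly and gather integrins, proteases and receptors into patches known as tetraspanin-enriched microdomains. They carry no catalytic activity of their own, and act through the partners they hold. In breast and other carcinoma cells they are known for their part in adhesion, migration and the release of extracellular vesicles. CD82, also called KAI1, is a classical metastasis suppressor of prostate and other tumours.

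The 10 tetraspanin genes described are CD82, CD9, CD63, CD81, CD151, TSPAN3, TSPAN4, TSPAN9, TSPAN14 and TSPAN15, taken by symbol from the 17452 genes listed for each library. They were proposed with the outcome of the knockdown in view, because CD82 was among the large falls. Their differences between the groups are therefore given as a description, without p-values, and support nothing by themselves. Another 23 genes complete the human family of 33 tetraspanins.

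RNA sequencing of poly-A RNA was done in MDA-MB-231, a mesenchymal-like line from a triple-negative breast tumour. In the siPHF20L1 group, 3 libraries stand for cells given siRNA to PHF20L1, and the siControl group holds 3 libraries of control cells. PHF20L1 encodes a nuclear reader of methylated lysines. All cells were grown in L-15 medium with 10% serum. Neither the siRNA sequences nor the harvest time was given in the sources used here, and the labels name a pair of transfection reagents without saying which was used for which library. Separate cultures within a group are not stated by the labels, so the p-values measure only the spread between these libraries, which may be technical. In bulk RNA, fewer cells that express a gene and less RNA per cell cannot be told apart.

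The deposited values are FPKM, which divide fragments by transcript length and by library size, so levels can be set side by side between genes if the lengths are right. The length used for each gene was not given in the sources used here. Orders of level, shares of a sum and ratios between genes carry this limit. The steps of the low values put the depth at 16900000 to 17400000 fragments per library. PHF20L1 itself (Entrez 51105) lay at 2.67, 2.31 and 2.74 FPKM in siPHF20L1 libraries, against 15.75, 12.48 and 12.73 FPKM in siControl libraries, so each library followed its label. Of the line's markers, VIM was above 1000 FPKM in every library, ESR1 was listed at 0 throughout and PGR stayed at 0.05 FPKM or below. The leukocyte markers found (5 of 6) summed to 1.68 to 2.54 FPKM in siPHF20L1 and 2.13 to 2.38 FPKM in siControl libraries, and the 4 endothelial markers to 1.80 to 1.93 FPKM in siPHF20L1 and 1.58 to 1.87 FPKM in siControl libraries. Of the leukocyte markers, PTPRC lay at 0.97 to 1.39 FPKM in siPHF20L1 and 0.87 to 1.43 FPKM in siControl libraries, and CD14 at 0.5 to 0.74 FPKM in siPHF20L1 and 0.7 to 1.24 FPKM in siControl libraries. CD79A was at 0.36 FPKM or below, and CD3E and ITGAM at 0.04 FPKM or below, in every library. The libraries numbered 1 in both groups stood apart from those numbered 2 and 3, so values within these numbers are given beside the main ones.

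CD82 and CD9 were lower in siPHF20L1 libraries, CD63, TSPAN3 and TSPAN4 were modestly higher, and CD81, CD151, TSPAN9, TSPAN14 and TSPAN15 did not pass the threshold. That is 5 of 10 genes past an adjusted p of 0.05 (limma on log2(FPKM + 1), Benjamini-Hochberg over all genes), against 58.6% of the 11560 genes tested. By direction, 34.0% of the genes tested were higher and 24.7% lower in siPHF20L1, 3926 against 2851 genes. This excess turned under other scalings, with 3354 higher and 3495 lower under quantile normalization, and 3318 and 3540 with median-ratio size factors. All 10 members passed the filter on low values, with at least 1 FPKM in all 6 libraries. The libraries of the groups did not overlap for 4 members on the higher and 2 on the lower side, against 36.7% and 27.0% of all genes tested, 63.7% in all. CD82 and CD9 also passed a log2 difference of -1, as 1.89% of genes did, and no member passed 1, as 3.34% did. The median log2 difference of the 10 genes was 0.10, and that of all genes tested 0.05. Summed over all 33 tetraspanins, the level was 971 ± 46.3 FPKM in siPHF20L1 and 994 ± 52.6 FPKM in siControl libraries (SD, n = 3 each), a difference within the spread of the libraries.

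CD82 (Entrez 3732) had the largest difference of the 10. It lay at 27.84, 29.02 and 26.55 FPKM in siPHF20L1 libraries, against 94.34, 102.19 and 102.33 FPKM in siControl libraries. Every knockdown library was far under every control library, and within each group the values kept close together. The means were 27.8 ± 1.24 FPKM in siPHF20L1 and 99.6 ± 4.57 FPKM in siControl libraries (SD, n = 3 each), 3.58-fold lower. The log2 difference was -1.80 (SE 0.06), the 24th lowest of the 11560 genes tested. Taken alone, the pair numbered 1 gave -1.73, and the pairs numbered 2 and 3 gave -1.84. CD82 is also counted among the metastasis suppressor genes of this series, and these are the values shared with that group.

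CD9 (Entrez 928), a tetraspanin that is needed on the egg for sperm fusion and that restrains or promotes motility depending on the tumour, followed CD82. It had 43.43, 43.47 and 42.38 FPKM in siPHF20L1 libraries, against 98.02, 102.16 and 93.81 FPKM in siControl libraries. The groups were well apart, and the knockdown libraries differed among themselves by little more than 1 FPKM. By their means CD9 was 2.27-fold lower in siPHF20L1, with a log2 difference of -1.17 (SE 0.05). The pair numbered 1 gave -1.16 and the other pairs -1.17. In control cells CD82 and CD9 were at the same level within their spread. After knockdown they were not, with a CD82 to CD9 ratio of 0.641, 0.668 and 0.626 in siPHF20L1, against 0.962, 1.00 and 1.09 in siControl libraries.

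The sequences around the transcript starts of CD82 and CD9 are shown because these are the members that were lower together. Both come from RefSeq (GRCh38.p14, not the GRCh37 build that the submitters' notes name), run from 250 bases before to 50 after the start, and hold the start of the transcripts that the files list. Capitals mark the GC box GGGCGG on either strand, a word bound by SP1-type factors.

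CD82, chr11:44565413-44565712, plus strand: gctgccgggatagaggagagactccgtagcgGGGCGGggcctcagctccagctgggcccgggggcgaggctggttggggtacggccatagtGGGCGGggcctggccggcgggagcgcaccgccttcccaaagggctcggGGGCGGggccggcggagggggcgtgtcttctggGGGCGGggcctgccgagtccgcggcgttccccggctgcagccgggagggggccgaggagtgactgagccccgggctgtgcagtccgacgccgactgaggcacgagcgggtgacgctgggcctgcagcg

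CD9, chr12:6200150-6200449, plus strand: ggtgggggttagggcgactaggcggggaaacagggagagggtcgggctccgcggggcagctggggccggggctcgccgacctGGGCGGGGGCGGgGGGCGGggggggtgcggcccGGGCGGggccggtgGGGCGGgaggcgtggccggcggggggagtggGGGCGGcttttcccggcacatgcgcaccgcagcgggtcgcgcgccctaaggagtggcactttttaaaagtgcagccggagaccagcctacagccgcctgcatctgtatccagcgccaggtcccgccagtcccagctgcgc

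The CD82 window holds 33 CpG dinucleotides and 4 GC boxes, and the CD9 window 32 and 6, some of which abut. Over 35116 RefSeq windows of this length the median is 14 CpG, and 45% hold a GC box. On either strand, neither window holds the TATA box word TATAAA (in 11.5% of all windows), the AP-1 word TGANTCA (in 7.71%) or the E-box word CACGTG (in 7.26%). The first TSPAN14 window, of a member whose level hardly differed, holds 53 CpG and 6 GC boxes. Windows were found for 6 of the 10 members. CD9 has 3 other annotated windows, with 1 to 30 CpG, and these data do not tell which start was used.

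**Figure D1:**
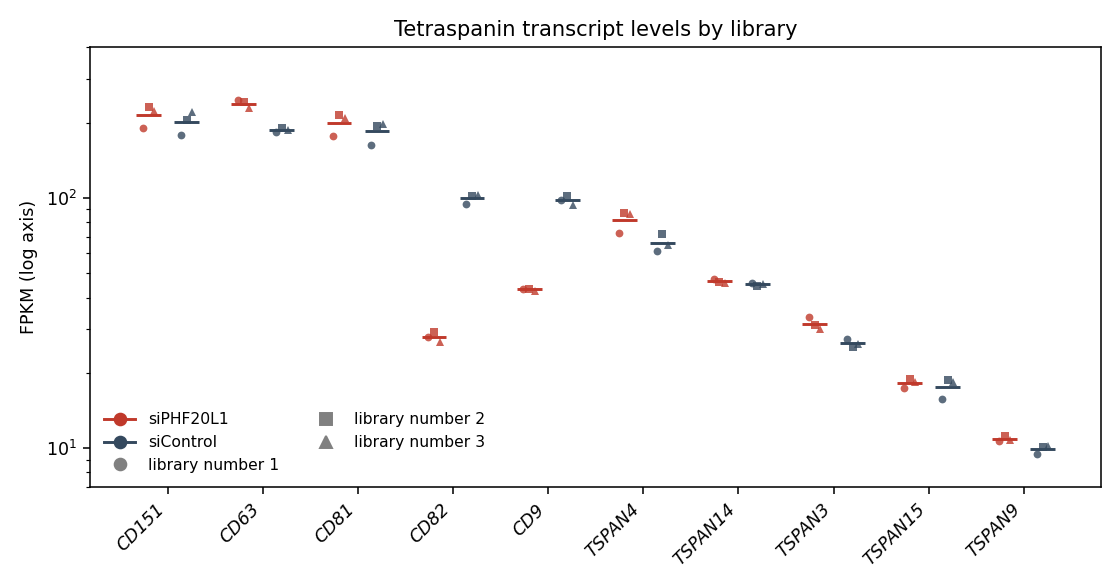
Transcript levels (FPKM, log axis) of the 10 tetraspanin genes in each library, siPHF20L1 in red left of siControl in dark blue, with a horizontal line at each group mean and a marker shape for the library number. CD82 and CD9 are the only pairs in which the groups are more than 2-fold apart, 3.58-fold for CD82 and 2.27-fold for CD9.

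CD63, the tetraspanin of late endosomes and a common marker of exosomes, was higher. It had 245.69, 240.97 and 228.18 FPKM in siPHF20L1 libraries, against 183.0, 191.13 and 186.68 FPKM in siControl libraries. The lowest knockdown library stood above the highest control library. The means were 238 ± 9.06 FPKM in siPHF20L1 and 187 ± 4.07 FPKM in siControl libraries (SD, n = 3 each), a ratio of 1.27, and the log2 difference was 0.35 (SE 0.06). The pair numbered 1 gave 0.42 and the other pairs 0.31. CD63 became the most abundant tetraspanin by mean after knockdown, though its range overlapped that of CD151, next in order.

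TSPAN4, which gathers in migrasomes, the vesicles that migrating cells leave behind, had 72.2, 86.73 and 86.26 FPKM in siPHF20L1 libraries, against 61.18, 71.73 and 65.14 FPKM in siControl libraries. The groups did not overlap, but came within 1 FPKM of each other. The log2 difference was 0.30 (SE 0.09). It did not pass the threshold with median-ratio size factors (0.22), without siPHF20L1 replicate 2 (0.26) or without siPHF20L1 replicate 3 (0.26). TSPAN3 had 33.57, 31.02 and 29.87 FPKM in siPHF20L1 libraries, against 27.38, 25.46 and 26.2 FPKM in siControl libraries, again without overlap, and its log2 difference was 0.25 (SE 0.06).

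CD81 and CD151 were abundant and nearly level between the groups. CD81, a receptor for hepatitis C virus, had 177.18, 213.74 and 208.07 FPKM in siPHF20L1 libraries, against 162.24, 193.82 and 197.94 FPKM in siControl libraries. CD151, which binds the laminin receptors of the integrin family, had 189.73, 230.1 and 223.45 FPKM in siPHF20L1 libraries, against 179.29, 205.78 and 220.67 FPKM in siControl libraries. In both genes the groups overlapped, and the library numbered 1 was the lowest of its group. The log2 differences were 0.11 (SE 0.10) for CD81 and 0.09 (SE 0.10) for CD151. With the replicate number as a block, CD81 passed the threshold at the same log2 difference, and CD151 did not. An exon overlap with POLR2L on the opposite strand covers 146 of 2861 annotated exon bases of CD151, and opposite-strand transcripts also overlap 125 of 3294 exon bases of CD82 and 237 of 2466 of CD63. The library kit keeps strand, but whether the counting used it was not given in the sources used here.

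TSPAN14, TSPAN15 and TSPAN9 had small differences. TSPAN14, a partner of the protease ADAM10, had 47.62, 46.17 and 45.59 FPKM in siPHF20L1 libraries, against 45.6, 44.67 and 45.44 FPKM in siControl libraries. TSPAN15, another ADAM10 partner, had 17.36, 18.83 and 18.33 FPKM in siPHF20L1 and 15.7, 18.76 and 18.31 FPKM in siControl libraries. Both had overlapping groups, with log2 differences of 0.04 and 0.05 (SE 0.05 and 0.08), and under quantile normalization or median-ratio size factors both turned slightly negative. TSPAN9, known from platelets, had 10.66, 11.21 and 10.8 FPKM in siPHF20L1 libraries, against 9.46, 10.08 and 10.23 FPKM in siControl libraries. Its groups did not overlap, and its log2 difference of 0.12 (SE 0.06) passed the threshold with the replicate block, at the same value, and not without it.

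Ratios within a library need no scaling between libraries. The ratio of CD82 to CD81 was 0.157, 0.136 and 0.128 in siPHF20L1 libraries, against 0.581, 0.527 and 0.517 in siControl libraries. The ratio of CD9 to CD63, members that moved in opposite directions, was 0.177, 0.180 and 0.186 in siPHF20L1 libraries, against 0.536, 0.535 and 0.503 in siControl libraries. Neither ratio overlapped between the groups. For CD9 to CD63 this was fixed in advance, since each gene already lay apart between the groups, in opposite directions. The ratio of CD82 to CD81 restates the lower CD82 level, which was known when the members were chosen.

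The order of levels changed for CD82 and CD9. In siPHF20L1 libraries it ran CD63, CD151, CD81, TSPAN4, TSPAN14, CD9, TSPAN3, CD82, TSPAN15 and TSPAN9, and the ranges of the first 3 overlapped with their neighbours while all others were apart. In siControl libraries it ran CD151, CD63, CD81, CD82, CD9, TSPAN4, TSPAN14, TSPAN3, TSPAN15 and TSPAN9, where the first 3 overlapped with their neighbours and so did CD82 with CD9. CD82 thus went below TSPAN4, TSPAN14 and TSPAN3, which it exceeded in control cells.

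As shares of the summed tetraspanin level, CD82 made up 2.87 ± 0.159% in siPHF20L1 and 10.0 ± 0.0719% in siControl libraries, and CD9 4.45 ± 0.236% in siPHF20L1 and 9.87 ± 0.681% in siControl libraries (SD, n = 3 each). CD63 took 24.6 ± 1.84% in siPHF20L1 and 18.8 ± 0.711% in siControl libraries, CD151 22.0 ± 1.24% in siPHF20L1 and 20.3 ± 1.17% in siControl, and CD81 20.5 ± 1.11% in siPHF20L1 and 18.5 ± 1.02% in siControl libraries. The 10 members together held 93.9 ± 0.156% of the sum in siPHF20L1 and 94.1 ± 0.263% in siControl libraries. Shares of a sum move against each other, so a larger share of CD81 or CD151 is no rise of its own.

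**Figure D2:**
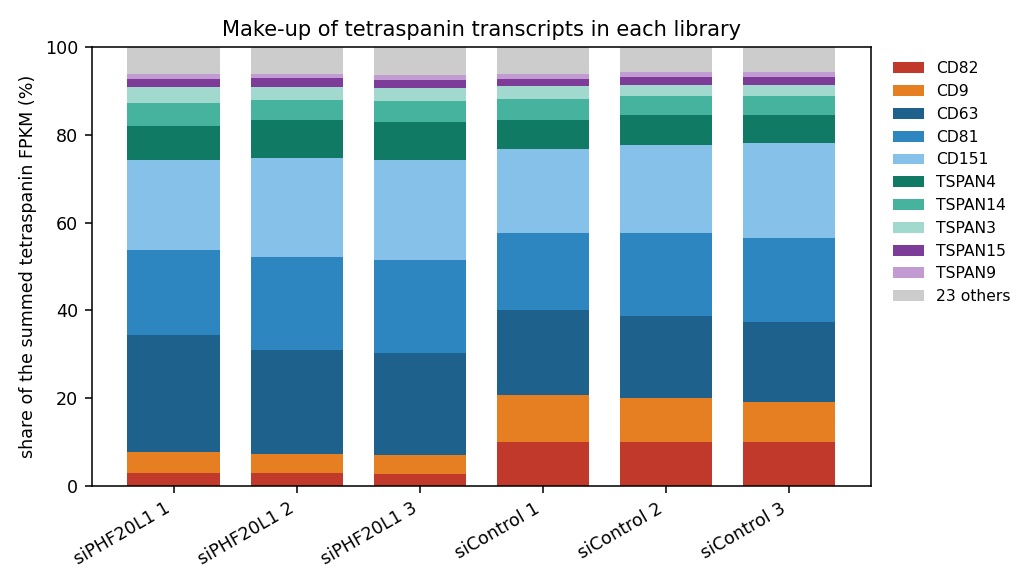
Make-up of the summed tetraspanin FPKM in each library, in percent, stacked by gene, with the siPHF20L1 libraries left of the siControl libraries and the 23 other tetraspanins in grey. CD82 and CD9 shrink to means of 2.87% and 4.45% in siPHF20L1, against 10.0% and 9.87% in siControl libraries.

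The other tetraspanins were mostly near silent. Of the 23, 14 did not reach the filter of 1 FPKM in 3 libraries and 9 were tested. Of these 9, TSPAN1 and CD37 reached 1 FPKM in siPHF20L1 libraries only, so the filter let them in through the group where they are high. With a filter on the mean FPKM, which leaves them out, 7 were tested, of which 3 rose and 3 fell, and the middle log2 difference was that of TSPAN31, at -0.008. In the main fit 34.0% of all genes rose and 24.7% fell.

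Among these genes, the largest falls were in TSPAN6 and TSPAN5. TSPAN6 had 1.99, 1.39 and 1.41 FPKM in siPHF20L1 libraries, against 5.55, 5.3 and 4.92 FPKM in siControl libraries, and fell by 1.27 on the log2 scale (SE 0.10, limma, adjusted p = 1.65e-05). TSPAN5, which guides ADAM10 to the cell surface, had 10.52, 9.46 and 10.12 FPKM in siPHF20L1 libraries, against 20.35, 20.05 and 20.74 FPKM in siControl libraries, with a log2 difference of -0.95 (SE 0.06, limma, adjusted p = 5.67e-06). In both genes the groups lay far apart. TSPAN12, a co-receptor in Norrin and Frizzled signalling, was lower by less, at 3.02 ± 0.02 FPKM in siPHF20L1 against 3.83 ± 0.351 FPKM in siControl libraries (SD, n = 3 each; limma, adjusted p = 0.0185), and it missed the threshold when siControl replicate 1 or 3, or siPHF20L1 replicate 2 or 3, was left out. Over all alternatives its adjusted p from limma ran from 0.00209 to 0.0594.

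TSPAN17 and TSPAN10, both ADAM10 partners, rose. TSPAN17 had 25.82, 29.59 and 32.41 FPKM in siPHF20L1 libraries, against 16.8, 18.74 and 18.83 FPKM in siControl libraries (log2 difference 0.66, SE 0.09, limma, adjusted p = 0.000298). TSPAN10 had 3.84, 4.04 and 4.14 FPKM in siPHF20L1 libraries, against 1.68, 2.01 and 2.02 FPKM in siControl libraries (log2 difference 0.79, SE 0.08, limma, adjusted p = 5.58e-05). In both genes every siPHF20L1 library was above every siControl library.

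TSPAN1, CD37 and ROM1 lay at very low levels, where few fragments stand behind a value. TSPAN1, an epithelial tetraspanin, had 1.24 ± 0.139 FPKM in siPHF20L1 and 0.637 ± 0.159 FPKM in siControl libraries (SD, n = 3 each), and CD37, known from leukocytes, 1.25 ± 0.178 FPKM in siPHF20L1 and 0.630 ± 0.108 FPKM in siControl libraries. No p is given for either, since the filter took them in through 1 group. ROM1, a protein of photoreceptor outer segments, had 1.08, 2.04 and 1.39 FPKM in siPHF20L1 and 0.77, 0.67 and 1.0 FPKM in siControl libraries (limma, adjusted p = 0.0222). Its siPHF20L1 libraries met the filter by themselves, and only 1 siControl library reached 1 FPKM, so this p has much the same limit. ROM1 also passed the filter on the mean FPKM. The ROM1 call was lost under quantile normalization and without siControl replicate 2 or siPHF20L1 replicate 2 (limma, adjusted p from 0.00426 to 0.147 over all alternatives), and 395 of its 2248 exon bases lie opposite EML3. TSPAN31 did not pass, at 3.82 ± 0.817 FPKM in siPHF20L1 and 3.81 ± 0.276 FPKM in siControl libraries (limma, adjusted p = 0.958). Its exons share 1369 of 4046 bases with CDK4 on the opposite strand, so its level is uncertain.

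**Figure D3:**
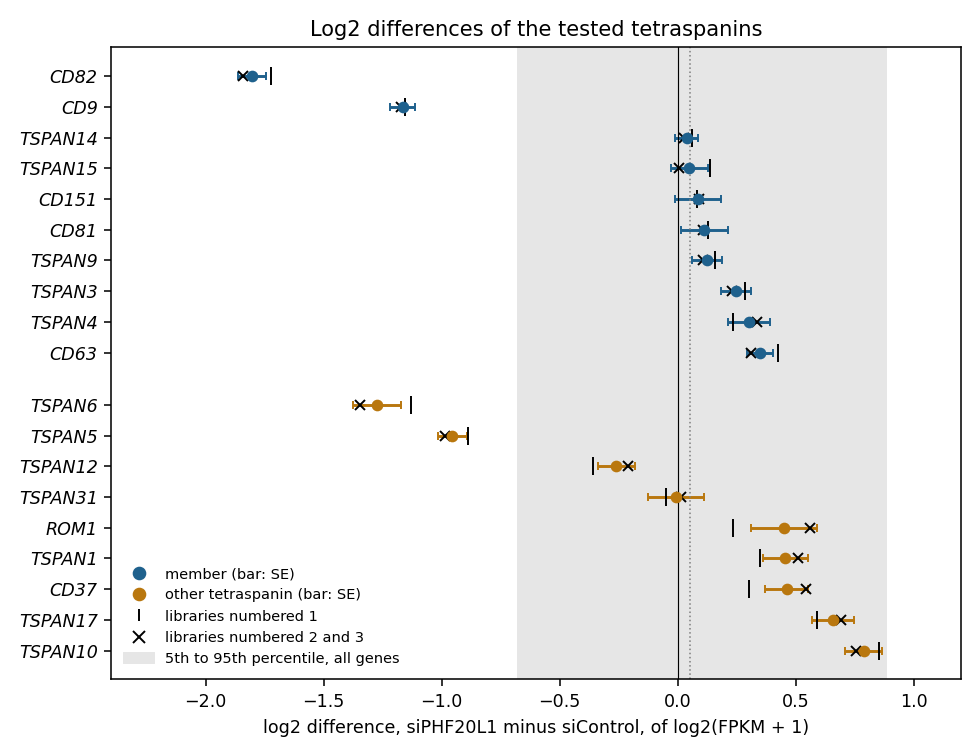
Log2 differences (siPHF20L1 minus siControl, of log2(FPKM + 1)) of the 10 members in blue and the 9 other tested tetraspanins in orange, with the SE as a bar, the values within the libraries numbered 1 (tick) and 2 and 3 (cross), and the 5th to 95th percentile of all genes in grey. CD82, CD9, TSPAN6 and TSPAN5 lie left of the grey band, and no tetraspanin lies right of it.

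TSPAN14 and TSPAN15 belong to the TspanC8 group, named for the cysteines of the large outer loop, with TSPAN5, TSPAN10, TSPAN17 and TSPAN33. These 6 proteins bind ADAM10, a protease that sheds Notch, cadherins and other surface proteins, and each carries it to different substrates. Their summed level was 108 ± 2.69 FPKM in siPHF20L1 and 103 ± 2.75 FPKM in siControl libraries (SD, n = 3 each), with overlapping libraries. Within the group TSPAN5 and TSPAN17 changed places. The ratio of TSPAN5 to TSPAN17 was 0.407, 0.320 and 0.312 in siPHF20L1 libraries, against 1.21, 1.07 and 1.10 in siControl libraries. TSPAN14 kept 43.0 ± 2.04% of the sum in siPHF20L1 and 43.7 ± 1.47% in siControl libraries, while TSPAN33 was at 0.25 FPKM or below throughout.

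**Figure D4:**
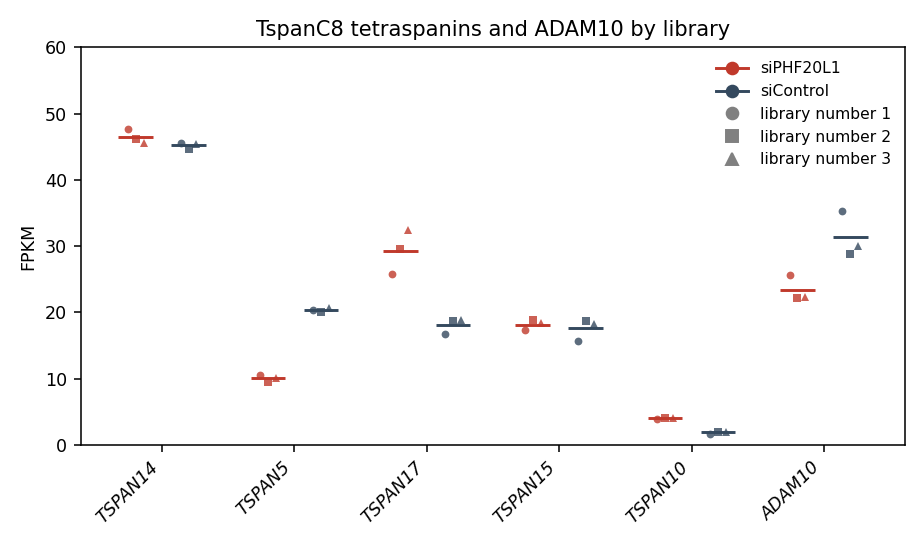
Transcript levels (FPKM) of 5 TspanC8 tetraspanins and ADAM10 in each library, siPHF20L1 in red left of siControl in dark blue, with lines at group means and a marker shape for the library number. TSPAN5 is lower in all 3 siPHF20L1 libraries and TSPAN17 higher, while TSPAN14 and TSPAN15 overlap.

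ADAM10 itself had 25.68, 22.19 and 22.3 FPKM in siPHF20L1 libraries, against 35.37, 28.89 and 30.06 FPKM in siControl libraries. The groups did not overlap, with a log2 difference of -0.41 (SE 0.09; adjusted p = 0.0044 by limma). Of 15 genes listed for ADAM10 and proteins it is known to shed, 11 were tested, of which 6 fell, 3 rose and 2 did not pass, with a median log2 difference of -0.36. Over all genes tested 24.7% fell and 34.0% rose, with a median of 0.05. NOTCH3 fell to 1.42 ± 0.193 FPKM in siPHF20L1, against 5.13 ± 0.493 FPKM in siControl libraries (limma, adjusted p = 7.94e-06). The receptor kinase gene AXL fell to 255 ± 5.25 FPKM, against 499 ± 9.23 FPKM in siControl (limma, adjusted p = 2.46e-06), and the chemokine gene CXCL16 to 0.960 ± 0.167 FPKM, against 1.79 ± 0.216 FPKM in siControl (limma, adjusted p = 0.0017). CXCL16 lay near the filter. Its siControl libraries, where it is high, met the filter by themselves, and only 1 siPHF20L1 library reached 1 FPKM, which limits its p. The prion protein gene PRNP rose to 106 ± 4.30 FPKM in siPHF20L1, against 73.6 ± 1.37 FPKM in siControl libraries (limma, adjusted p = 6.56e-05). Transcript levels say nothing of shedding, which was not measured.

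Membrane partners of tetraspanins went both ways. Of 21 listed genes 19 were tested, of which 8 rose, 2 fell and 9 did not pass, with a median log2 difference of 0.02. Over all genes tested 58.6% passed. The split depended on the fit, with 9 higher and 4 lower under quantile normalization, 7 and 5 with median-ratio size factors, and 8 and 6 with the replicate block. Of all 11560 genes tested, the counts in these fits were 3354 and 3495, 3318 and 3540, and 4946 and 3846. The genes that fell in the main fit were IGSF8 and IFITM1. IGSF8, also called EWI-2, the immunoglobulin protein held directly by CD9 and CD81, had 4.64, 6.07 and 5.16 FPKM in siPHF20L1 libraries, against 10.1, 11.7 and 11.57 FPKM in siControl libraries (log2 difference -0.95, SE 0.10, limma, adjusted p = 6.86e-05). The IGSF8 to CD9 ratio was 0.107, 0.140 and 0.122 in siPHF20L1 and 0.103, 0.115 and 0.123 in siControl libraries, and overlapped between the groups. The IGSF8 to CD81 ratio did not overlap, at 0.0262, 0.0284 and 0.0248 in siPHF20L1, against 0.0623, 0.0604 and 0.0585 in siControl libraries. IFITM1, an interferon-induced membrane protein that binds CD81, had 2.84 ± 0.555 FPKM in siPHF20L1 and 6.76 ± 0.526 FPKM in siControl libraries (limma, adjusted p = 8.26e-05). The other EWI gene of the list, PTGFRN, was at 0.02 FPKM or below in every library.

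CLDN1, a tight junction protein that pairs with CD81 in virus entry, rose to 9.58 ± 0.970 FPKM in siPHF20L1, against 4.30 ± 0.725 FPKM in siControl libraries (limma, adjusted p = 0.000107). EPCAM, an epithelial adhesion protein found in tetraspanin complexes, rose to 4.31 ± 0.796 FPKM, against 2.20 ± 0.161 FPKM in siControl (limma, adjusted p = 0.00067). Among the integrins that CD151 and CD9 hold, ITGB1 had 651 ± 54.1 FPKM in siPHF20L1 and 503 ± 39.8 FPKM in siControl libraries (limma, adjusted p = 0.00486) and ITGA6 had 48.6 ± 4.31 FPKM in siPHF20L1 and 37.4 ± 3.30 FPKM in siControl libraries (limma, adjusted p = 0.00489). ITGA3, the most abundant alpha subunit of the list, had 328 ± 21.2 FPKM in siPHF20L1 and 324 ± 21.0 FPKM in siControl libraries and did not pass (limma, adjusted p = 0.836). It passed under quantile normalization, and over all alternatives its log2 difference ran from -0.06 to 0.155 (limma, adjusted p from 0.0326 to 0.95). ITGB4, the beta subunit that pairs with ITGA6, had 13.2, 15.29 and 15.47 FPKM in siPHF20L1, against 15.55, 17.21 and 17.64 FPKM in siControl libraries, without overlap, and did not pass (log2 difference -0.19; limma, adjusted p = 0.0755). It passed with the replicate block, with either other scaling (median-ratio or quantile), with the libraries numbered 2 and 3 and without siControl replicate 1 (limma, adjusted p from 0.00166 to 0.211 over all alternatives). MMP14, a membrane protease that tetraspanins hold at the surface, rose to 108 ± 5.34 FPKM in siPHF20L1, against 66.6 ± 2.08 FPKM in siControl libraries (limma, adjusted p = 2.2e-05).

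All 27 genes listed for endosomal sorting and vesicle release were tested, of which 10 rose, 6 fell and 11 did not pass, with a median log2 difference of -0.02. That is near the 58.6% of all genes that passed. With median-ratio size factors 9 rose and 10 fell, against 3318 and 3540 of all 11560 genes tested. With the replicate block 12 rose and 12 fell, against 4946 and 3846 of all genes tested. The syndecan genes SDC4 and SDC1, whose proteins enter exosomes through syntenin, rose to 76.5 ± 1.69 and 73.9 ± 1.47 FPKM in siPHF20L1, against 38.7 ± 1.57 and 43.2 ± 1.56 FPKM in siControl libraries (limma, adjusted p = 2.67e-06 and 7.71e-06). CHMP4C, a subunit of the ESCRT-III filament, rose to 4.81 ± 0.236 FPKM, against 2.43 ± 0.310 FPKM in siControl (limma, adjusted p = 0.000115). VPS4B, an ATPase that takes such filaments apart, fell to 9.33 ± 0.165 FPKM, against 18.3 ± 1.19 FPKM in siControl (limma, adjusted p = 1.03e-05). The vesicle markers CD63, CD81 and CD9 are members above, and they differed in direction or did not pass.

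Gangliosides, palmitate and ubiquitin ligases set how tetraspanins pack and how long they last. Of 14 such genes 11 were tested, of which 6 fell, 3 rose and 2 did not pass, with a median log2 difference of -0.24. Over all genes tested the shares were 24.7% lower and 34.0% higher. ST3GAL5, the synthase of the ganglioside GM3 that CD82 and CD9 associate with, fell to 7.25 ± 0.613 FPKM in siPHF20L1, against 14.0 ± 0.450 FPKM in siControl libraries (limma, adjusted p = 2.32e-05). B4GALT5, which makes the lactosylceramide used by that synthase, rose to 96.9 ± 5.28 FPKM, against 60.7 ± 2.98 FPKM in siControl (limma, adjusted p = 3.86e-05). LYPLA1, a thioesterase that removes palmitate, fell to 13.2 ± 0.243 FPKM, against 20.1 ± 1.11 FPKM in siControl (limma, adjusted p = 9.99e-05). The membrane ubiquitin ligase gene MARCH4 rose to 22.8 ± 0.741 FPKM in siPHF20L1, against 8.74 ± 0.488 FPKM in siControl libraries (log2 difference 1.29, limma, adjusted p = 1.58e-06).

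Of 15 factors known to act on CD82 transcription, all tested, 4 rose, 4 fell and 7 did not pass, with a median log2 difference of -0.05. Over all genes tested 58.6% passed. With median-ratio size factors 3 rose and 5 fell, against 3318 and 3540 of all 11560 genes tested. With the replicate block 6 rose and 6 fell, against 4946 and 3846 of all genes tested. JUNB, a subunit of AP-1, fell to 22.0 ± 2.91 FPKM in siPHF20L1, against 38.7 ± 3.85 FPKM in siControl libraries (limma, adjusted p = 0.000294). JUN, another subunit, fell too, with 51.98, 67.4 and 65.01 FPKM in siPHF20L1, against 71.44, 88.98 and 91.63 FPKM in siControl libraries (limma, adjusted p = 0.0119). The deacetylase gene HDAC1 rose to 50.1 ± 1.89 FPKM, against 32.1 ± 1.75 FPKM in siControl (limma, adjusted p = 4.62e-05). TFAP2A, which encodes AP-2 alpha, rose to 4.99 ± 0.266 FPKM, against 3.89 ± 0.308 FPKM in siControl (limma, adjusted p = 0.0109), and missed the threshold under quantile normalization (limma, adjusted p from 0.000974 to 0.0517 over all alternatives).

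**Figure D5:**
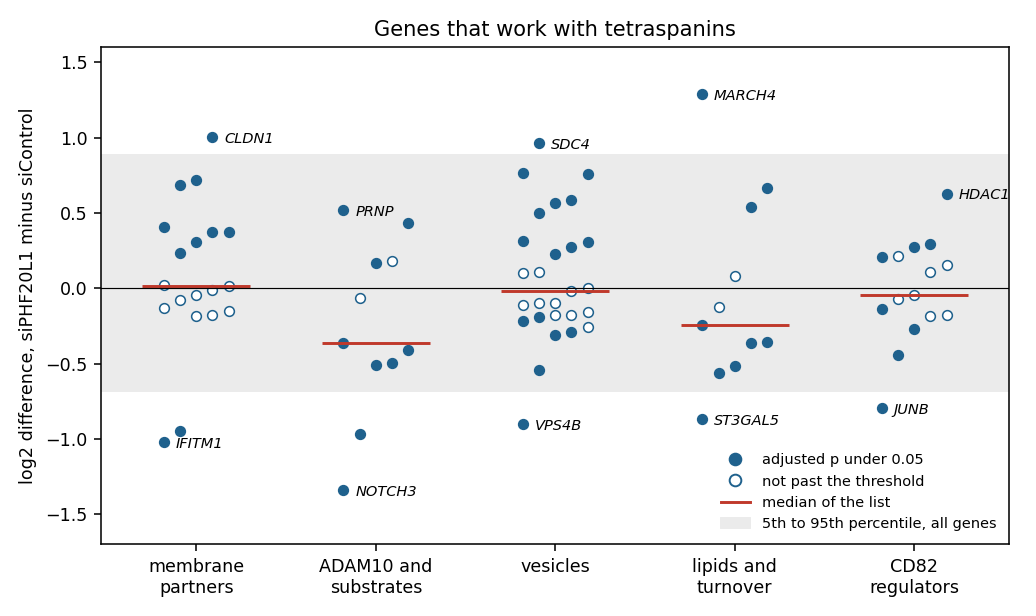
Log2 differences (siPHF20L1 minus siControl) of the tested genes in 5 lists that work with tetraspanins, 1 point per gene, filled where the adjusted p of limma was under 0.05, with a red line at each list's median, the 5th to 95th percentile of all genes in grey, and the extremes of each list named. The medians run from -0.36 for ADAM10 and its substrates to 0.02 for the membrane partners.

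The genes whose pattern over the 6 libraries was most like that of CD82 were TRNP1, CA2, IL1B, BNIP3 and ABHD6. Likeness was the mean absolute difference of log2(FPKM + 1) after each gene was centred on its own mean, and it was 0.0375, 0.0554, 0.0563, 0.074 and 0.074 for these genes. The nearest tetraspanins were TSPAN6 at 0.265 and CD9 at 0.319, the 89th and 125th in order. PHF20L1 itself was the 26th, at 0.136. This order depends on the added 1, which makes differences of low genes such as TRNP1, CA2, IL1B and ABHD6 too small. With 0.1 added in its place, the log2 differences of these genes were -2.06, -2.085, -2.034 and -2.105. At that setting CD82 had -1.837 and BNIP3 -1.849. Likeness was not computed again there.

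A feature that the choice of members did not use is the sequence of the 3′ UTR. The 6-letter words CAAGAT and TAAGGA had been picked earlier on the log2 differences of these same libraries, so their presence beside a difference is no independent evidence. The longest annotated 3′ UTR (GENCODE 29) of CD82 is 1237 nt, with CAAGAT once, and that of CD9 is 582 nt, also with CAAGAT once. Among all genes tested with a 3′ UTR of at least 50 nt, 38.9% carry CAAGAT, and among those with 500 to 1300 nt, which takes in both lengths, 20.6% do. TSPAN6 carries it 4 times in 2917 nt. The sites of these 3 genes, the tetraspanins whose log2 differences were under -1, are shown with the word in capitals.

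CD82: gtaaaacacactCAAGATtctaagactatt

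CD9: ctagactctagaCAAGATattgtacataaa

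TSPAN6 site 1: ggttgattcaatCAAGATgtatgtagacct

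TSPAN6 site 2: ggctgattcaatCAAGATccgtgctcgcag

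TSPAN6 site 3: ggctgattcaatCAAGATgtatgtttgcta

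TSPAN6 site 4: gatgtagtgttaCAAGATggaaaattgatt

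The word was not limited to genes that were lower. TSPAN14 (3 times in 15147 nt), TSPAN3 (2 times in 5431 nt), TSPAN9 (once in 3448 nt) and CD37 (once in 948 nt) carry CAAGAT, and none of them was lower. These too are the longest annotated 3′ UTRs. The transcripts listed for TSPAN14 and TSPAN3 have median lengths of 808 and 1647 nt, so their sites may lie outside the transcripts measured. TAAGGA without CAAGAT stands once each in CD63 (437 nt), TSPAN31 (2921 nt) and ROM1 (371 nt), of which none was lower past the threshold. CD81, CD151, TSPAN4, TSPAN15, TSPAN1, TSPAN10, TSPAN12 and TSPAN17 carry neither word in 425 to 2094 nt, and of these TSPAN12 was the lower one. IGSF8, which was lower, carries neither word in 307 nt. Not every tetraspanin tested is in this account, so it gives no tally of carriers among lower and other genes. Whether the words have a part in the differences was not tested.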

How the data were processed

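Poly-A RNA of 6 MDA-MB-231 libraries (3 siPHF20L1, 3 siControl, grouped by their titles) was sequenced. Per the submitters' processing notes, the build was GRCh37, and Bowtie 0.12.2, TopHat2 2.1.1 and also HTSeq 0.6.0 were used, with no role or order given. Per the file headers, the authors deposited FPKM, 1 value per gene and library, written to 2 decimals; no source used here gives the annotation or strand setting. Library sums were 395250.9 to 416138.4 FPKM. Depth was estimated from the steps of FPKM times transcript length in 240 to 276 genes per library, and 1 fragment in 1 kb was worth 0.0575 to 0.0592 FPKM, so the fewest estimated fragments behind a member's value were about 453 (TSPAN15). The symbols of 26 genes had turned into dates and were restored from RefSeq through the Entrez identifier.

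The test fitted limma 3.58.1 (R 4.3.3) to log2(FPKM + 1), siPHF20L1 minus siControl, with an intensity trend and no block, over 11560 genes with at least 1 FPKM in at least 3 libraries. P-values were two-sided and adjusted by Benjamini-Hochberg over these genes, and 0.05 was the threshold. The added 1 makes differences of low genes too small. The 15 tested alternatives changed scaling, pseudocount, filter, trend, block or libraries.

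Same-numbered libraries deviated together from their group means (correlation across genes 0.73, 0.44 and 0.42 for the numbers 1, 2 and 3), all above 0.1. The replicate block pairs libraries by number, and no label explains the numbers. Pairs of unlike number gave 0.49 (siPHF20L1 2 with siControl 3) and 0.31 (siPHF20L1 3 with siControl 2). The values thus set only number 1 apart, and do not settle how numbers 2 and 3 pair. Calls made with the block carry this limit.

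Members and gene lists were chosen with earlier results of these data known. Named genes are the members, the tested tetraspanins, up to 4 genes with the largest change among those past the threshold in each other list, and the 5 genes most like CD82. ADAM10, PTGFRN, MMP14, ITGB1, ITGA6, ITGA3 and ITGB4 were named outside this rule, after their values were seen. Promoter windows are from RefSeq (GRCh38.p14), and 3′ UTRs and exon overlaps from GENCODE 29. That build differs from the authors', so no coordinates of their files are given. A further 3′ UTR site is not reported here.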

Additional observations from a re-analysis of the deposited data

How the results depend on the processing

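The counts of genes past the threshold, for all genes, the 10 members and the 6 other lists, were at most 1.5 times the main count under all 15 tested alternatives. Some lists reached that bound. With the replicate block, 24 vesicle genes passed in place of 16, and 12 CD82 regulators in place of 8. With no filter on low values, 12 other tetraspanins passed in place of 8, with 22 tested in place of 9. The split by direction moved more, as given beside the membrane partner, vesicle and CD82 regulator lists. Over all 15 alternatives, the log2 difference lay between -1.88 and -1.77 for CD82, between -1.24 and -1.14 for CD9 and between 0.27 and 0.43 for CD63. That all 3 stayed past the threshold is a description only, since the members were proposed with this contrast in view. With the replicate number as a block 7 of the 10 members passed in place of 5, with CD81 (log2 difference 0.11) and TSPAN9 (0.12) added, and over all genes 8792 passed in place of 6777; among the other named genes it changed the call of ITGB4 alone. CD81 also passed with the libraries numbered 2 and 3 alone (0.11). Signs turned for genes near 0 that did not pass: TSPAN14 to -0.02 (quantile normalization) and -0.04 (median-ratio size factors), TSPAN15 to -0.003 and -0.027 under the same scalings, and TSPAN31 to 0.005 (equal sums) and 0.013 (libraries numbered 2 and 3). With 1 replicate left out, TSPAN15 ran from -0.028 (without siControl replicate 1) to 0.094, and TSPAN31 from -0.144 to 0.062. The cause was not tested. The median of all genes moved from 0.05 to -0.02 with median-ratio size factors. Values near 1 FPKM rest on few fragments (TSPAN1 about 15, CD37 about 11 in their lowest library).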
